A study of Mus musculus with 9 samples.

Results

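Celastrol-treated brains were compared here with every undrugged brain of the series at once: 3 libraries from mice given celastrol after a stroke operation, against 3 sham-operated and 3 untreated occluded libraries. These 9 libraries are the whole series. For each gene the tested value was the celastrol mean minus the average of the sham mean and the tMCAO mean, each group counting equally, and 16982 of 55385 gene rows were tested. All animals were male C57BL/6 mice 8 to 10 weeks old, with no engineered allele named. Mice of the tMCAO group underwent transient occlusion of the middle cerebral artery, which models a stroke with reperfusion: the artery was closed for 90 min and then opened. Drug-treated mice had that occlusion too, with celastrol injected into the peritoneum at 4.5 mg/kg when reperfusion began, and sham mice had the operation without closure of the artery. No injection is described for the sham and tMCAO mice, and no group received celastrol without an occlusion, so an effect of the drug on the intact brain, on the injured brain or of the injection itself cannot be told apart. Neither the sampling time nor how many mice went into each library is stated in the sources used here, and p-values reflect only how far these libraries spread, which may be technical. RNA depleted of ribosomal RNA came from the hemisphere, called the ischemic one in the extraction protocol.

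Celastrol is a triterpenoid from the root of the thunder god vine that reacts with cysteine residues of proteins. In cultured cells it is known for switching on heat shock factor 1 and the NRF2 antioxidant programme, for disturbing the chaperone Hsp90 and the proteasome, and for dampening NF-kappaB signalling, and in obese mice for restoring the response to leptin. Each of these programmes has known target genes, which were read as lists beside markers of brain cell types and regions. The occlusion itself makes astrocytes and microglia reactive and lets blood leukocytes enter the tissue, so a gene left at its occluded level by the drug also differs from the average of sham and tMCAO. Levels outside both undrugged groups were therefore read in a pair of stricter ways: by the larger of the p-values against sham and against tMCAO where both differences had the same sign, and by whether all 3 celastrol libraries lay beyond all 6 undrugged ones.

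Library totals ranged from 60392960 to 75158625 estimated counts (median 68726348), and mitochondrial genes took 5.80% to 7.39% of them. Neuronal and myelin genes were abundant throughout: Gad1, which makes GABA, lay between 372 and 495 CPM (TMM-scaled counts relative to library size, the usual CPM unit) in the 9 libraries, and Mbp, a myelin protein, between 382 and 721 CPM. The first principal component held 31% of the variance, with sham scores of -58.7 to -25.8 and tMCAO scores of 17.0 to 58.1. Of the celastrol libraries, replicates 1 and 3 scored 44.1 and 20.3, within the tMCAO scores, while replicate 2 scored -23.2, next to sham. Results that turn on that library are given with and without it.

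No gene passed an adjusted p of 0.05 in the contrast with the average of both groups, a share of 0% of the genes tested (smallest adjusted p = 0.159, Benjamini-Hochberg method over edgeR's quasi-likelihood p-values). At an unadjusted p under 0.05, 498 genes were higher with celastrol (2.93% of genes tested) and 246 lower (1.45%), together 744 genes or 4.38%. Of the 498 higher genes, 443 had a celastrol mean above both undrugged means and 55 lay between them. Of the 246 lower genes, 241 lay below both means and 5 between them. Over all genes tested, 26.6% lay above both means, 26.9% below both and 46.6% between them. These unadjusted counts were 706 higher and 363 lower without celastrol replicate 2, and 599 higher and 543 lower without celastrol replicate 3.

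The stricter readings left fewer genes. Under the larger of the p-values against sham and tMCAO, none passed with adjustment by edgeR, and at an unadjusted level 61 genes were higher (0.359%) and 43 lower (0.253%) than both groups. All 3 celastrol libraries lay above all 6 undrugged libraries for 126 genes (0.742%) and below them for 119 (0.701%), together 1.44% of genes. The 126 genes above held 106 protein-coding genes and had a median log2 fold change of 0.54. The 119 below held 89 protein-coding genes and 19 pseudogenes and had a median log2 fold change of -0.37. All 16982 genes tested held 13633 protein-coding genes and 1363 pseudogenes. In each direction 21 of these genes differed by more than 1 on the log2 scale. With celastrol replicate 1, 2 or 3 left out, so that fewer libraries had to clear the undrugged range, 333, 505 and 574 genes lay above it and 354, 478 and 687 below it. Genes differing from both groups at the unadjusted level then numbered 58, 93 and 117 higher and 67, 94 and 206 lower.

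**Figure D1:**
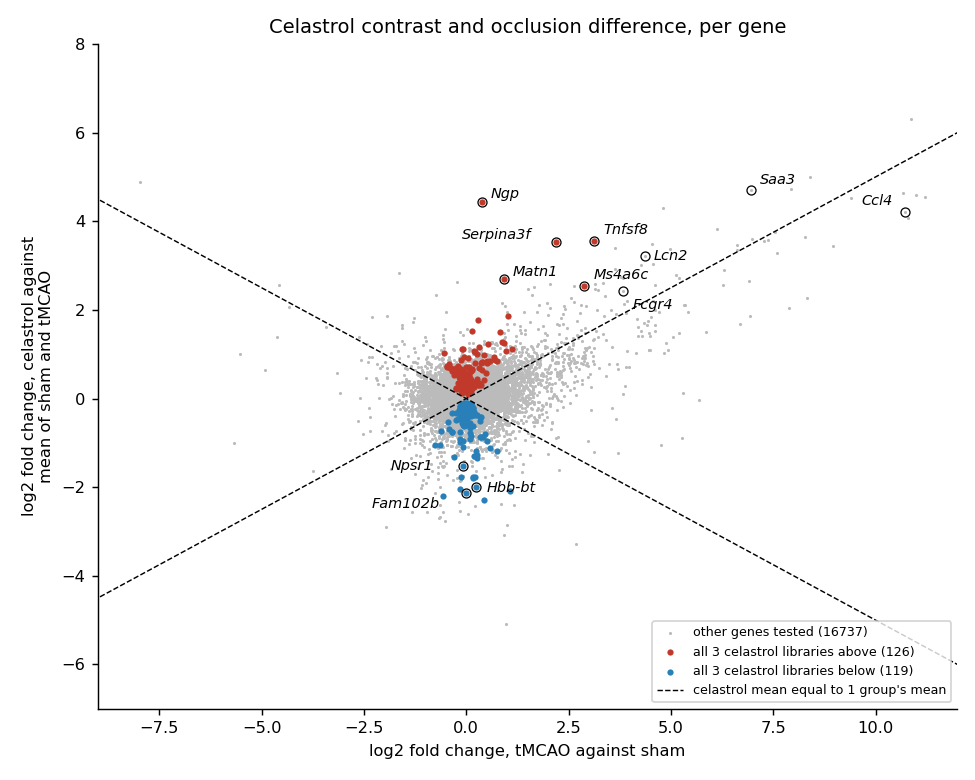
Each point is 1 of the genes tested, with the log2 fold change of tMCAO against sham on the x axis and that of celastrol against the average of sham and tMCAO on the y axis. Dashed lines mark a celastrol mean equal to the sham or the tMCAO mean, so points in the upper and lower wedges lie outside both group means. Red and blue points are the 126 and 119 genes whose 3 celastrol libraries lie above or below all 6 undrugged ones. Fcgr4, Saa3, Lcn2 and Ccl4 were labelled after their values were seen, as genes far from sham in both occluded groups.

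DESeq2's Wald test on the same counts and contrast called 73 genes, 56 higher and 17 lower. Of the 56 higher genes, 50 lay above both means and 6 between them, and all 17 lower genes lay below both means. The 3 celastrol libraries cleared all 6 undrugged libraries for 34 of the 73 genes and overlapped them for 39. By the test against both groups, DESeq2 called 1 gene, Fam102b (adjusted p = 3.1e-07). Genes described next are, unless said otherwise, the 15 higher and 15 lower genes with all celastrol libraries beyond the undrugged range, a mean of at least 1 CPM and the smallest unadjusted p in edgeR. Their edgeR adjusted p-values ran from 0.159 to 0.928, so none passed that test. DESeq2 called 26 of the 30, against 73 of 16982 genes tested. In 24 of the 30 the larger p against the single groups was under 0.05, against 0.612% of all genes. The 30 were picked from these same counts by separation and p, so these high shares follow from the choice and add no support.

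Fam102b, a gene of chromosome 3 (chr3:108970997-109027607, minus strand, mm10), was the most depressed of these genes. It lay at 12.9, 12.7 and 12.2 CPM with celastrol, against 40.4, 55.9 and 70.2 CPM in sham and 47.4, 36.8 and 81.5 CPM in tMCAO. The 3 celastrol libraries lay within 1 CPM of each other and far under the lowest undrugged library, while the undrugged libraries spread widely and alike in both groups. Means were 55.5 ± 14.9 CPM in sham, 55.2 ± 23.4 CPM in tMCAO and 12.6 ± 0.344 CPM with celastrol (SD, n = 3 each), a 4.40-fold lower level than the average of both groups. The log2 fold change was -2.14 (SE 0.28, edgeR adjusted p = 0.159, DESeq2 adjusted p = 1.3e-10), and it was -2.14 against sham and -2.13 against tMCAO. It ran from -2.25 to -1.83 over 20 alternative settings, in none of which but DESeq2 did it pass. Fam102a, its paralog, had a log2 fold change of 0.08 (SE 0.08) and lay between 75.3 and 93.8 CPM in all 9 libraries. Another annotated gene, Gm43221, overlaps Fam102b on the opposite strand and was too low to be tested. Because Fam102b stood furthest below both groups, the 250 bases before its start are printed here from RefSeq (GRCm38.p6, chr3:109027608-109027857, minus strand), all in lower case since none of the 3 motifs searched, described further on, was found in them.
Fam102b: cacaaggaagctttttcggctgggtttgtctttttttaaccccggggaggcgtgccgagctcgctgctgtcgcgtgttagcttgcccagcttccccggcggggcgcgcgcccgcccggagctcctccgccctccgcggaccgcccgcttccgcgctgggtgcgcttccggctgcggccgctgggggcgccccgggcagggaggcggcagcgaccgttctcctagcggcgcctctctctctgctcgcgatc

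Npsr1, the receptor of neuropeptide S, lay at 1.37, 1.40 and 1.75 CPM with celastrol, against 4.20, 5.58 and 3.61 CPM in sham and 2.68, 3.22 and 6.82 CPM in tMCAO. Its log2 fold change was -1.53 (SE 0.35, edgeR adjusted p = 0.677). Gpr83, a G protein-coupled receptor of the brain, was at 18.0 to 22.2 CPM with celastrol and 23.3 to 49.3 CPM without, with a log2 fold change of -0.87 (SE 0.21). The margin between the groups was narrow for Gpr83, whose lowest undrugged value came from sham replicate 1, and wider for Npsr1. Ankrd34b, an ankyrin repeat protein of neurons, was at 13.2 to 21.3 CPM against 26.7 to 39.4 CPM, and Vstm2l, a secreted antagonist of the neuroprotective peptide humanin, at 22.0 to 28.0 CPM against 30.6 to 55.01 CPM. Their log2 fold changes were -0.75 (SE 0.19) and -0.67 (SE 0.18).

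Fip1l1, a subunit of the complex that cleaves and polyadenylates messenger RNA, lay at 67.4, 45.1 and 42.8 CPM with celastrol, against 86.3, 79.9 and 93.4 CPM in sham and 94.1, 90.1 and 92.8 CPM in tMCAO. All 3 celastrol libraries were lower than the 6 tightly grouped undrugged ones, and the log2 fold change was -0.79 (SE 0.15, edgeR adjusted p = 0.654, DESeq2 adjusted p = 0.00241). Hmgn2, a nucleosome-binding protein, was at 29.97 to 35.3 CPM against 37.0 to 53.5 CPM, and Smarcd3, a subunit of the SWI/SNF chromatin remodeller, at 45.8 to 56.2 CPM against 57.5 to 76.0 CPM. Naa20, the catalytic subunit of an N-terminal acetyltransferase, was at 31.8 to 32.6 CPM against 33.5 to 48.0 CPM. Hmgn2 and Naa20 lay close under 1 of the groups, Hmgn2 under sham and Naa20 under tMCAO, and their larger p-values were 0.0587 and 0.131. Psme1, which encodes a subunit of the PA28 proteasome activator, was at 15.5 to 16.7 CPM against 19.4 to 23.5 CPM, with a log2 fold change of -0.38 (SE 0.10). Its partner subunit Psme2 had a log2 fold change of 0.09 (SE 0.16) and did not stand apart. Evpl, which encodes envoplakin of the epithelial cell envelope, completed the lower set at 3.96 to 5.45 CPM against 5.46 to 12.7 CPM, with almost no gap.

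The other 4 lower genes were adult globins, the oxygen carriers of red blood cells. Hbb-bt lay at 11.2, 10.9 and 8.47 CPM with celastrol, against 41.5, 43.8 and 26.0 CPM in sham and 33.9, 14.1 and 83.0 CPM in tMCAO. Hbb-bs lay at 34.7, 31.6 and 24.7 CPM, against 111, 119 and 63.6 CPM in sham and 92.9, 39.6 and 196 CPM in tMCAO. The celastrol libraries were low and alike, and the undrugged library nearest to them was tMCAO replicate 2 in both genes. Hba-a1 and Hba-a2 had the same pattern, at 18.0 to 24.4 and 16.0 to 21.3 CPM with celastrol. Log2 fold changes of the 4 globins ran from -1.99 (Hbb-bt, SE 0.50) to -1.76 (Hba-a2, SE 0.47), and DESeq2 called all 4, with adjusted p-values of 0.00666 for Hbb-bt, 0.00998 for Hbb-bs, 0.0127 for Hba-a1 and 0.0138 for Hba-a2. The paired copies within each globin locus are nearly identical, so reads may be split between them and the genes are not independent. Alas2, the heme synthesis enzyme of erythroid cells, was at 0.976 to 1.61 CPM against 1.11 to 10.0 CPM, with a log2 fold change of -1.78 (SE 0.61). Summed over the 5 erythrocyte genes tested, the level was 68.2 to 92.9 CPM with celastrol, 175 to 322 CPM in sham and 106 to 555 CPM in tMCAO. In such bulk libraries fewer cells of a type and less RNA per cell cannot be told apart, and the part of blood left in the vessels was not tested. Against 1.45% of all genes, 5 of these 5 genes were lower at an unadjusted p under 0.05, and their median was -1.78, against 0.01 over all genes. That median ran from -1.99 without tMCAO replicate 2 to -1.38 without tMCAO replicate 3.

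**Figure D2:**
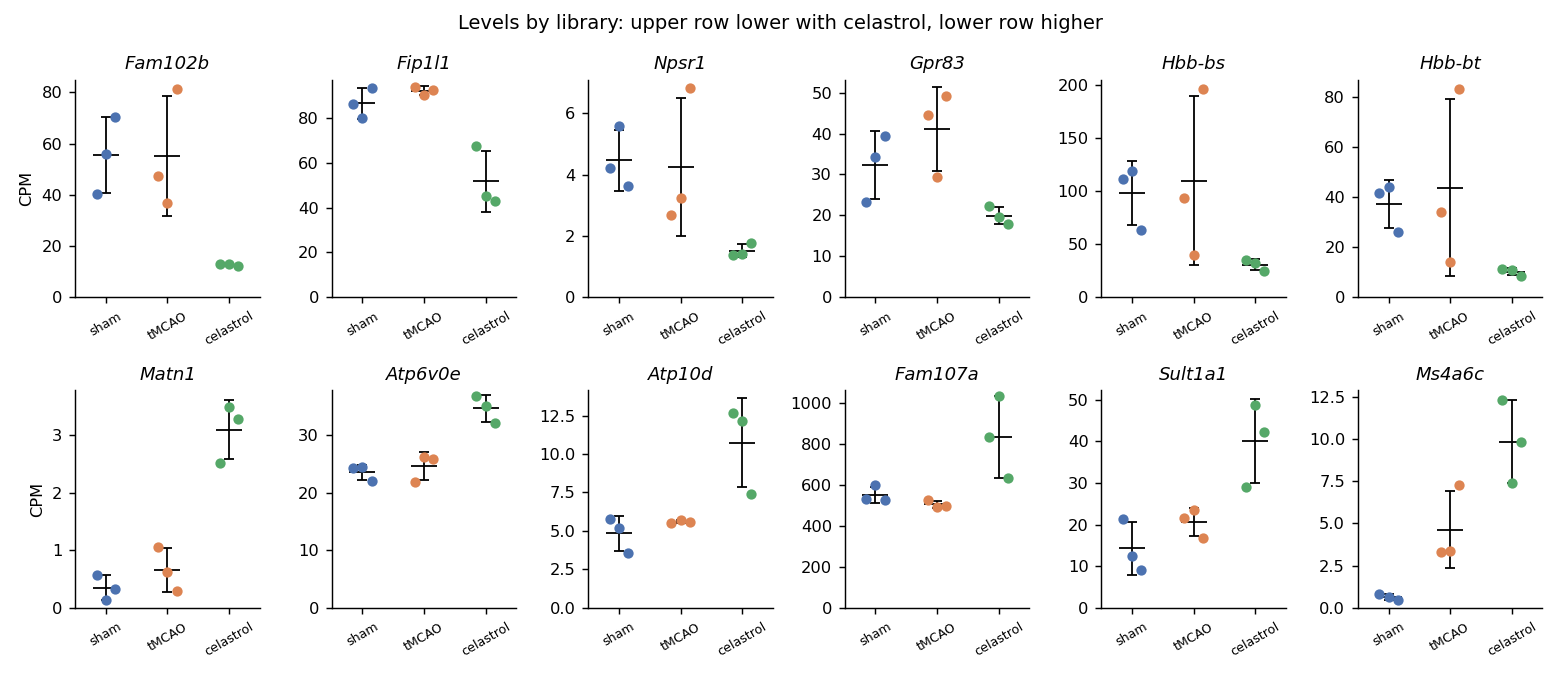
Levels in CPM for 12 of the named genes, 1 point per library, with the group mean (horizontal bar) and SD (error bar, n = 3) for sham (blue), tMCAO (orange) and celastrol (green). In the upper row the 3 celastrol libraries lie below all 6 undrugged ones, and in the lower row above them. Each axis starts at 0 and has its own scale.

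Among the higher genes, Matn1, a cartilage matrix protein, lay at 2.52, 3.49 and 3.28 CPM with celastrol, against 0.572, 0.135 and 0.329 CPM in sham and 1.05, 0.623 and 0.294 CPM in tMCAO. All undrugged libraries were far below the celastrol ones, and the log2 fold change was 2.69 (SE 0.46, edgeR adjusted p = 0.507, DESeq2 adjusted p = 0.00024). Col8a1, a collagen of vessel walls and basement membranes, was at 17.2, 10.1 and 6.46 CPM with celastrol, against 2.18 to 4.22 CPM in sham and 4.58 to 6.03 CPM in tMCAO. Celastrol replicate 3 cleared the highest tMCAO library of Col8a1 by a small margin, and replicate 1 was the highest.

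Genes of transport, signalling and metabolism followed. Atp6v0e, a subunit of the proton pump that acidifies lysosomes, lay at 36.8, 35.1 and 32.1 CPM with celastrol, against 24.2, 24.4 and 22.1 CPM in sham and 21.8, 26.2 and 25.9 CPM in tMCAO. Sham and tMCAO did not stand apart in this gene, and the log2 fold change was 0.52 (SE 0.10, edgeR adjusted p = 0.654). Atp10d, a phospholipid flippase, was at 12.7, 12.1 and 7.41 CPM with celastrol, against 3.55 to 5.76 CPM in the 6 undrugged libraries, a log2 fold change of 1.05 (SE 0.22). Lrrc8c, a subunit of the volume-regulated anion channel, was at 57.2 to 63.2 CPM against 36.3 to 51.1 CPM. Arhgef3, an activator of the small GTPase RhoA, was at 113 to 134 CPM against 67.6 to 101 CPM. Fam107a, an actin-bundling protein that stress and glucocorticoids are known to raise in the brain, was at 835, 1036 and 635 CPM with celastrol, against 534, 599 and 525 CPM in sham and 526, 494 and 498 CPM in tMCAO. Fam107a was the most abundant of the 30 genes, its lowest celastrol library was close to the highest sham library, and its log2 fold change was 0.66 (SE 0.14). Hrct1, a small membrane protein rich in histidine, was at 2.02 to 2.79 CPM against 0.507 to 1.39 CPM.

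In 5 further genes of the higher set, known from immune cells or inflamed tissue, the tMCAO mean lay between the sham and celastrol means. Ms4a6c, a membrane protein of myeloid cells, lay at 12.3, 7.41 and 9.86 CPM with celastrol, against 0.782, 0.625 and 0.467 CPM in sham and 3.28, 3.35 and 7.29 CPM in tMCAO. Its log2 fold change was 2.53 against the average of both groups (SE 0.31, edgeR adjusted p = 0.159, DESeq2 adjusted p = 1.22e-09), 3.97 against sham and 1.09 against tMCAO. The gap to the nearest tMCAO library, replicate 3, was small. Siglece, an inhibitory sialic acid receptor of myeloid cells, was at 1.86 to 2.23 CPM with celastrol, 1.19 to 1.45 CPM in tMCAO and 0.432 to 0.811 CPM in sham. Tnfsf8, the ligand of CD30, was at 2.62 to 5.57 CPM with celastrol, 0.915 to 1.05 CPM in tMCAO and at most 0.321 CPM in sham. Against tMCAO the log2 fold change was 0.56 for Siglece and 1.98 for Tnfsf8. The larger of edgeR's p-values against the single groups was 0.0932 and 0.0682, so neither was under 0.05. Serpina3f, a serine protease inhibitor gene of a large family of near copies, was at 1.37, 4.27 and 2.24 CPM with celastrol and at most 0.929 CPM without. Ngp, a protein of neutrophil granules, lay at 6.08, 1.78 and 5.49 CPM with celastrol, against at most 0.335 CPM in sham and 0.581 CPM in tMCAO. Its log2 fold change was 4.63 against sham and 4.25 against tMCAO, with 0 counts in 1 library of each undrugged group, which leaves the size of the fold uncertain. Ngp, Tnfsf8, Serpina3f and Matn1 reached the level needed for testing, an FPKM (depth- and length-scaled count) of 0.5, in the celastrol libraries alone. They could therefore enter the test only by being high with celastrol.

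Several of these rows cannot be kept apart from a neighbour. Of the 30 genes, 10 overlap another annotated gene and 9 overlap one on the opposite strand, and the strand setting of the counting is unknown here. Lnx1, which overlaps Fip1l1, had a log2 fold change of 0.26 (SE 0.11), and Sgf29, which overlaps Sult1a1, of -0.15 (SE 0.15), in each case opposite in sign to its partner. BE692007, which overlaps Ms4a6c, had a log2 fold change of 1.13 (SE 0.29), in the same direction as its partner.

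Of 1292 tested genes in the class read as non-coding, 7 were above and 6 below all undrugged libraries, against 0.742% and 0.701% of all genes. With a mean of at least 1 CPM, 3 of those above and 5 of those below remained. This class also took in genes annotated only with nonsense-mediated decay transcripts, so not all of its members are non-coding RNA genes. 9430085M18Rik, a long non-coding RNA, was at 1.49 to 2.33 CPM with celastrol against 0.572 to 1.47 CPM, a log2 fold change of 0.92 (SE 0.31). Gm16001 was at 2.78 to 3.82 CPM against 2.20 to 2.75 CPM, and Prkag2os2, antisense to the AMP kinase subunit gene Prkag2, at 2.22 to 2.49 CPM against 1.64 to 2.16 CPM. In the other direction, Gm2061 was at 1.08 to 2.60 CPM against 2.85 to 3.98 CPM. Gm28551, a read-through model annotated only as a nonsense-mediated decay transcript and not as a non-coding RNA, was at 1.41 to 4.15 CPM against 4.72 to 12.8 CPM. CAAA01066123, which overlaps Rps6ka4, was at 8.39 to 12.2 CPM against 12.6 to 16.6 CPM. All 6 had an edgeR adjusted p of 0.9997.

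Genes known to respond to glucocorticoids stood out among the lists read. These steroid hormones bind a nuclear receptor that moves to the nucleus and switches on a set of targets in many cell types, and stress and surgery raise them. Of 15 genes tested, 9 were higher at an unadjusted p under 0.05, against 2.93% of all genes, and none was lower; none passed with edgeR's adjustment over all genes. The list's median log2 fold change was 0.79, against 0.01 over all genes; it was 1.18 against sham, 0.38 against tMCAO and 0.63 for tMCAO against sham. The median against the average ran from 0.59 without celastrol replicate 3 to 1.004 without celastrol replicate 2. Summed over the list, the level was 1502 to 1977.7 CPM with celastrol and 851 to 1056.5 CPM in sham. The sum in tMCAO was 1089 to 2077.5 CPM, so it overlapped the celastrol libraries. All 3 celastrol libraries were above all 6 undrugged ones in 4 of the 15 genes (Sult1a1, Pdk4, Zbtb16 and Tsc22d3), against 0.742% of all genes. For 3 of these, Pdk4 being the exception, the larger p against the single groups was under 0.05, against 0.359% of all genes.

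Sult1a1, a sulfotransferase for phenols and steroids, lay at 29.0, 48.8 and 42.4 CPM with celastrol, against 21.4, 12.5 and 8.96 CPM in sham and 21.6, 23.5 and 16.9 CPM in tMCAO. Zbtb16, a zinc finger transcription factor, lay at 80.7, 81.1 and 92.6 CPM, against 45.4, 31.0 and 35.5 CPM in sham and 65.6, 58.5 and 26.0 CPM in tMCAO. Tsc22d3, the glucocorticoid-induced leucine zipper, lay at 91.2, 87.5 and 84.1 CPM, against 83.7, 54.3 and 47.7 CPM in sham and 58.6, 61.5 and 57.0 CPM in tMCAO. The celastrol libraries were alike in Zbtb16 and Tsc22d3, and in Tsc22d3 sham replicate 1 came almost up to them. Log2 fold changes were 1.22 (SE 0.27) for Sult1a1, 0.97 (SE 0.25) for Zbtb16 and 0.54 (SE 0.16) for Tsc22d3. Pdk4, a kinase that restrains pyruvate dehydrogenase, was at 21.9 to 29.5 CPM against 7.87 to 20.7 CPM, with tMCAO replicate 2 nearest to the celastrol libraries.

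In other members the celastrol level was near that of the higher tMCAO libraries. Fkbp5, a co-chaperone of the glucocorticoid receptor, lay at 152, 132 and 170 CPM with celastrol, against 73.6, 45.7 and 29.97 CPM in sham and 164, 135 and 69.4 CPM in tMCAO. The tMCAO libraries spread over the range from sham to celastrol here, with replicate 3 the lowest, and the log2 fold change against tMCAO was 0.30. Lcn2, an iron-binding acute phase protein that is also a marker of reactive astrocytes and neutrophils, had the largest log2 fold change of the list, 3.21 (SE 0.42, edgeR adjusted p = 0.159), with 158, 111 and 94.5 CPM under celastrol. Lcn2 lay at 4.51, 1.86 and 2.21 CPM in sham and 108, 31.6 and 37.9 CPM in tMCAO, so tMCAO replicate 1 reached the celastrol range. Cdkn1a, Ddit4 and Errfi1 were the remaining 3 with an unadjusted p under 0.05. The receptor gene itself, Nr3c1, had a log2 fold change of -0.14 (SE 0.13), and Per1 and Klf9, further textbook targets, of 0.25 (SE 0.19) and 0.13 (SE 0.15).

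**Figure D3:**
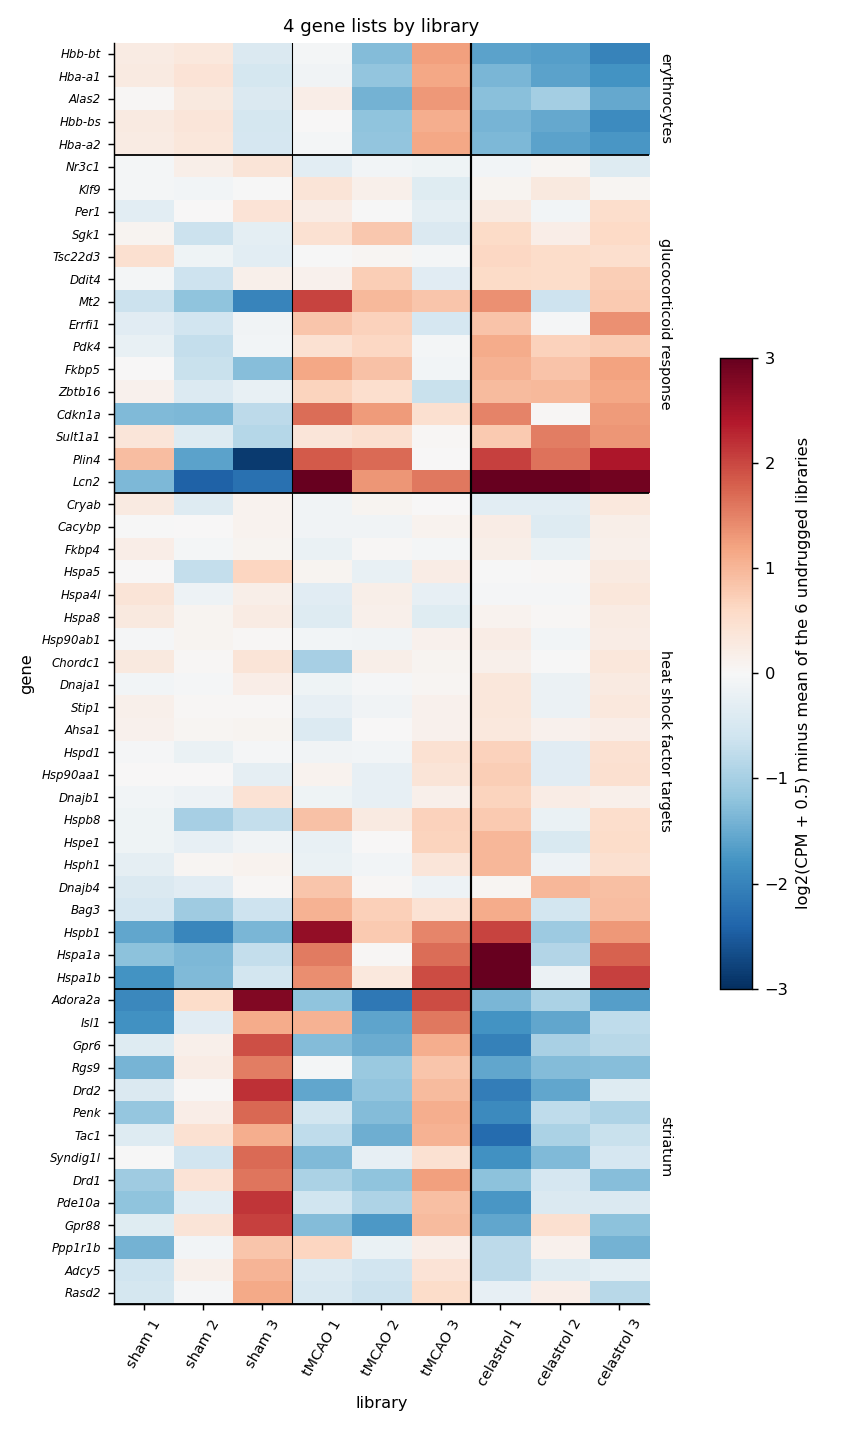
Log2 of CPM plus 0.5 for each tested gene of 4 lists in every library, shown as the difference from the mean of the 6 undrugged libraries, with red for higher and blue for lower and colours clipped at -3 and 3. The 5 erythrocyte genes are blue in all 3 celastrol columns and mixed in the tMCAO columns, most glucocorticoid response genes are red in all 3 celastrol columns, and Hspa1a and Hspa1b are red in celastrol replicates 1 and 3 and pale or blue in replicate 2.

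Because glucocorticoid targets were higher together and the heat shock targets are a known response to the drug, the 250 bases before the start of 4 of these genes were read from RefSeq (GRCm38.p6). The 3 motifs were searched on both strands: AGAACA or TGTTCT, the half-site of the glucocorticoid receptor, present in 16.2% of 27025 windows of this length; GAANNTTC or TTCNNGAA, a pair of heat shock factor units, in 12.9%; and TGACNNNGC or GCNNNGTCA, the antioxidant response element, in 10.1%. Capitals mark the matches, and no matches overlapped. Sult1a1 (chr7:126676419-126676668, minus strand) held 2 half-sites and Tsc22d3 (chrX:140600523-140600772, minus strand, 137 bases from the start in the deposited table) held 1. Hspa1a (chr17:34972157-34972406) and Hspa1b (chr17:34959239-34959488), both on the minus strand, held 1 heat shock element each and had identical bases at 247 of 250 positions. Of the other list members, Pdk4 and Fkbp5 were read too and held none of the 3 motifs, the Fkbp5 window lying far from the start in the deposited table. Zbtb16 had no window in the RefSeq set used, so its upstream bases were not read. A match is a run of letters and not a measured binding site, and no match says only that the letters are absent from the window.
Sult1a1: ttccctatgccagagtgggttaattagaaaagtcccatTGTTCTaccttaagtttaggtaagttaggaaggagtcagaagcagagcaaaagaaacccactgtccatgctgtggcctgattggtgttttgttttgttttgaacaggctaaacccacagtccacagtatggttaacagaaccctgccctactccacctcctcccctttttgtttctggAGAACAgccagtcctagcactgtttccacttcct
Tsc22d3: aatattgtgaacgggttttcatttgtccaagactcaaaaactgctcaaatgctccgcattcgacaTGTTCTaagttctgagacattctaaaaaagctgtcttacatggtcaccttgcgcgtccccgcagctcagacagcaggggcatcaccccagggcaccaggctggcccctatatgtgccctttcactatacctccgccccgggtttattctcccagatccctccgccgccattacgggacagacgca
Hspa1a: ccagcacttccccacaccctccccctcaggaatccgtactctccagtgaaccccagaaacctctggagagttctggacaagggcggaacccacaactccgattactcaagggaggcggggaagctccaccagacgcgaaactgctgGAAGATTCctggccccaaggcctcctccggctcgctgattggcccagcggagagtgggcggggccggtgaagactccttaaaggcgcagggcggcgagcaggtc
Hspa1b: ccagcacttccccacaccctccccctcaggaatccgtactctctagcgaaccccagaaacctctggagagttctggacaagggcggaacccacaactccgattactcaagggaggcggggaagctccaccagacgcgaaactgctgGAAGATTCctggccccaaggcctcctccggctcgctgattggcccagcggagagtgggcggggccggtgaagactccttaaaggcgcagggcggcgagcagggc

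Heat shock factor targets, the chaperones made when proteins unfold, were mostly a little above the undrugged average. Of 22 genes tested, 21 had a positive log2 fold change and 14 lay above both group means, against 26.6% of all genes. At an unadjusted p under 0.05, 3 (Hspa1a, Hspa1b and Dnajb4) were higher, against 2.93% of all genes. In none did all celastrol libraries lie above the undrugged range, against 0.742% of all genes, or below it. The list's median was 0.26, with 0.13 without celastrol replicate 1 and 0.38 without replicate 2. Hspa1b, an inducible Hsp70 chaperone, lay at 285, 23.9 and 114 CPM with celastrol, against 7.54, 10.5 and 18.4 CPM in sham and 71.8, 34.1 and 108 CPM in tMCAO. Hspa1a, its near-identical copy, lay at 271, 15.3 and 98.3 CPM, against 11.8, 10.8 and 17.0 CPM in sham and 84.8, 29.2 and 91.6 CPM in tMCAO. Celastrol replicate 1 was far above all libraries in both genes, replicate 3 was at the top of the tMCAO range, and replicate 2 was below all tMCAO libraries. Reads of the pair may be split, since the copies are nearly the same. The log2 fold change of Hspa1b was 2.26 (SE 0.63), and it ran from 1.23 to 2.76 when 1 library was left out. Dnajb4, an Hsp40 co-chaperone, lay at 41.6, 80.9 and 75.2 CPM, with celastrol replicate 1 the lowest of the drug group. The major constitutive chaperones stood near the undrugged level, with log2 fold changes of 0.12 (SE 0.14) for Hspa8, 0.12 (SE 0.11) for Hsp90ab1 and 0.34 (SE 0.23) for Hsp90aa1.

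The other programmes known for celastrol gave small medians. Among 31 proteasome subunits, 1 (Psmd4) was higher at an unadjusted p under 0.05, against 2.93% of all genes, and none lower, and the median was -0.03. Psmd4, a ubiquitin receptor of the proteasome's regulatory particle, lay at 85.7, 84.7 and 84.3 CPM with celastrol against 69.1 to 83.7 CPM, with hardly any gap, a log2 fold change of 0.18 (SE 0.08) and a larger p of 0.23. Of 22 NRF2 targets, 2 were higher, Srxn1 and Hmox1, and the median was 0.18, or 0.02 without celastrol replicate 1. Hmox1, which degrades heme, lay at 164, 14.7 and 45.2 CPM with celastrol and 107, 29.0 and 173 CPM in tMCAO, overlapping throughout, and its log2 fold change was -0.47 against tMCAO. Of 24 genes of the unfolded protein and integrated stress responses, 3 were higher (Atf3, Sesn2 and Chac1), with a median of 0.10, or 0.05 without tMCAO replicate 1. Of 14 NF-kappaB subunits and inhibitors, 2 were higher (Bcl3 and Nfkbiz), with a median of 0.15, or 0.07 without celastrol replicate 1. In the list of leptin, melanocortin and hypothalamic peptide genes 1 of 14 was higher, Socs3, a feedback inhibitor of cytokine signalling, and 1 was lower, Cartpt, an appetite-reducing peptide at 1.19 to 4.26 CPM against 2.05 to 32.2 CPM. Over all genes, 2.93% were higher and 1.45% lower at an unadjusted p under 0.05. No gene of these 5 lists passed the test against both groups at an unadjusted level. Over all genes 0.612% did, so in lists of this size the absence is near that share and says little.

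Immune and glial lists differed in direction, with medians from -0.21 for 23 interferon response genes and 0.01 for 14 resting astrocyte genes to 2.45 for neutrophil genes. Of 10 neutrophil genes that passed the filter on low values, from a list of 16, 7 were higher at an unadjusted p under 0.05, against 2.93% of all genes, with a median of 2.45 against the average, 4.08 against sham and 0.63 against tMCAO. Ngp was the 1 gene among them with all celastrol libraries above the undrugged ones, against 0.742% of all genes. Since such genes are near 0 in sham, they passed the filter through the occluded groups, and Ngp through the celastrol libraries alone. Their summed level was 137 to 207 CPM with celastrol, 55.2 to 140 CPM in tMCAO and 10.5 to 13.5 CPM in sham. Most of it in the occluded groups was Lcn2, which astrocytes also make. S100a8 and S100a9, paired calcium-binding proteins of neutrophils, lay at 2.78 to 10.1 and 5.52 to 14.4 CPM with celastrol and 2.58 to 3.77 and 3.64 to 10.6 CPM in tMCAO, so both overlapped. Mmp8, a collagenase of neutrophil granules, was at 2.52, 0.883 and 3.61 CPM with celastrol and 0.137, 1.55 and 0.186 CPM in tMCAO. Among 19 reactive astrocyte genes, 11 were higher, against the same 2.93%, and 3 lay above both group means, with a median of 0.99 against the average, 0.48 without celastrol replicate 1, and -0.62 against tMCAO. Of 21 cytokine and chemokine genes that passed the filter, from a list of 27, 5 were higher, against 2.93%, and none lay above both means. Among the tested members, Ccl4, Ccl7 and Il1rn were at 0 CPM in every sham library, so they too passed the filter through the occluded groups. Complement genes, which tag debris for phagocytes, were higher in 8 of 14, against 2.93% of all genes, with medians of 0.74 against the average and 0.10 against tMCAO. Cfb, an activating protease of the alternative complement pathway, was at 4.14, 4.45 and 3.98 CPM with celastrol. Sham libraries lay at 2.16, 1.57 and 2.46 CPM and tMCAO libraries at 2.95, 2.74 and 2.41 CPM. Cfb was the list's 1 gene with all celastrol libraries above the undrugged ones, against 0.742% of all genes. Its celastrol libraries were close together, and the log2 fold change was 0.83 (SE 0.20), or 0.63 against tMCAO. C1ra, a protease of the C1 complex, had 0.80 against tMCAO but overlapped, with celastrol replicate 3 at 1.91 CPM. C5ar1, the receptor of the complement peptide C5a, was at 11.2, 3.69 and 5.97 CPM with celastrol and 2.34 to 4.48 CPM in tMCAO, so replicate 2 overlapped. C1qa and C1qb, subunits of the initiating C1q complex, lay at 64.3 to 70.5 and 66.3 to 73.8 CPM with celastrol, with tMCAO replicate 3 above them in both genes.

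Resident microglia were read through 15 homeostatic genes. At an unadjusted p under 0.05, 3 of them were lower, P2ry12, Sall1 and Gpr34, against 1.45% of all genes. Sall1, a transcription factor that keeps microglial identity and is also made by other neural cells, lay at 19.8, 19.4 and 22.6 CPM with celastrol, against 26.5, 23.4 and 28.0 CPM in sham and 23.3, 26.7 and 29.0 CPM in tMCAO. It was the list's 1 gene with all celastrol libraries under the undrugged range, against 0.701% of all genes. Its log2 fold change was -0.34 (SE 0.12). P2ry12, an ADP receptor of microglia, lay at the tMCAO level with celastrol (log2 fold change 0.10 against tMCAO and -1.66 against sham). The list's median was -0.07, or -0.30 without celastrol replicate 2.

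Vessel and matrix genes were higher in part. Of 20 endothelial and blood-brain barrier genes, 6 were higher at an unadjusted p under 0.05, against 2.93% of all genes. The median of 0.35 went to -0.01 without celastrol replicate 1. Against the single groups the list's median was 0.58 for sham and 0.02 for tMCAO. Slc2a1, the glucose carrier of the barrier, lay at 175, 157 and 190 CPM with celastrol, against 139, 82.3 and 78.0 CPM in sham and 152, 144 and 121 CPM in tMCAO. Ly6c1, a surface protein of brain endothelium, was at 46.6 to 49.8 CPM against 25.2 to 45.5 CPM. Both genes had all celastrol libraries on top, against 0.742% of all genes, by a small margin over the nearest undrugged library. The remaining 4, Mfsd2a, Flt1, Vwf and Pecam1, were also above both group means but overlapped the undrugged range. Vwf and Pecam1 were near the tMCAO level, with log2 fold changes of 0.0035 and 0.06 against tMCAO. Those of Mfsd2a and Flt1 were 0.54 and 0.32. Of 28 collagen, basement membrane and leptomeningeal genes, 5 were higher, against 2.93% of all genes. Their median was 0.25, or 0.14 without tMCAO replicate 2, and it was 0.42 against sham and 0.08 against tMCAO. Lama2, a laminin chain, was at 17.3 to 18.9 CPM against 12.4 to 15.2 CPM, with a log2 fold change of 0.37 (SE 0.11), and Prelp, a leucine-rich matrix proteoglycan, at 22.6, 25.4 and 27.3 CPM against 25.6, 17.0 and 16.8 CPM in sham and 10.5, 13.3 and 11.8 CPM in tMCAO. Prelp was above every tMCAO library and overlapped sham replicate 1 alone.

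**Figure D4:**
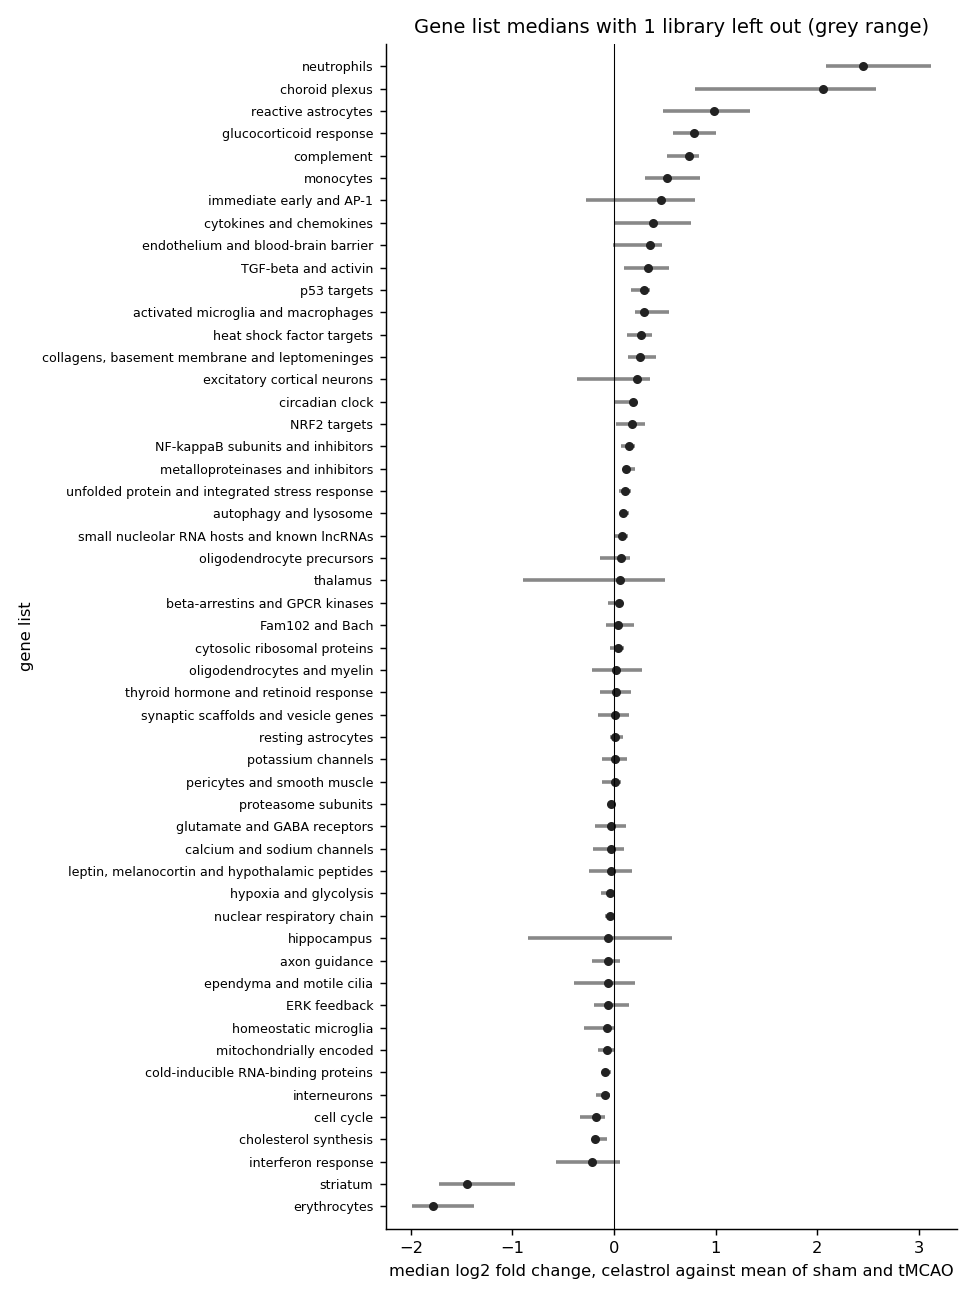
Median log2 fold change of celastrol against the average of sham and tMCAO for each list read but that of lymphocytes, of which 1 gene was tested (points), with the lowest and highest median over the 9 fits that each leave out 1 library (grey bars). The neutrophil and choroid plexus lists lie furthest to the right and the erythrocyte and striatum lists furthest to the left, and the bars of the immediate early, thalamus and hippocampus lists cross 0.

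A pair of region lists had large medians that came with large spread between libraries of 1 group. All 14 striatal genes tested, markers of the deep forebrain nucleus that the occluded artery supplies, lay below both group means, against 26.9% of all genes. Their median was -1.45. At an unadjusted p under 0.05, 3 (Rgs9, Syndig1l and Tac1) were lower, against 1.45% of all genes, and in none did the libraries separate. Rgs9, a brake on dopamine and opioid receptor signalling, lay at 14.2, 16.9 and 17.2 CPM with celastrol, against 15.8, 49.3 and 124 CPM in sham and 40.7, 19.2 and 76.4 CPM in tMCAO. The celastrol libraries were alike while sham spread widely, and the lowest sham library lay inside the celastrol range. Summed over the list the level was 385 to 683 CPM with celastrol, 454 to 2254 CPM in sham and 482 to 1340 CPM in tMCAO, and the median went to -0.97 without tMCAO replicate 3. Whether the dissected pieces held the same share of striatum was not tested.

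Choroid plexus genes, made by the epithelium that secretes cerebrospinal fluid, went the other way. Of 12 genes tested 6 were higher at an unadjusted p under 0.05, against 2.93% of all genes, and the median was 2.06, going to 0.80 without celastrol replicate 1 and 2.58 without replicate 2. Ttr, the thyroxine carrier that defines this tissue, lay at 1662.5, 3.53 and 399 CPM with celastrol, against 22.1, 2.79 and 31.1 CPM in sham and 240, 454 and 1.39 CPM in tMCAO. Levels of Ttr thus differed by orders of magnitude between libraries of 1 group, and the share of choroid plexus in each piece was not measured. Enpp2, autotaxin, makes the lipid mediator lysophosphatidic acid and is also made by oligodendrocytes. It was the list's 1 gene with all celastrol libraries above the undrugged ones, against 0.742% of all genes. Enpp2 lay at 704, 403 and 283 CPM with celastrol, against 194, 215 and 254 CPM in sham and 226, 252 and 141 CPM in tMCAO. Its log2 fold change was 1.12 (SE 0.27, edgeR adjusted p = 0.833), and 0.68 without celastrol replicate 1.

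None of 25 synaptic scaffold and vesicle genes, 31 glutamate and GABA receptor genes, 15 interneuron genes or 17 myelin genes had an unadjusted p under 0.05. Over all genes the share was 4.38%. Medians of these lists lay between -0.09 and 0.02. Targets of p53, the damage-induced transcription factor, had a median of 0.30, or 0.17 without celastrol replicate 1, with 5 of 16 higher, against 2.93% of all genes: Trp53inp1, Ccng1, Cdkn1a, Sesn1 and Sesn2. The median of the p53 list was 0.52 against sham, 0.0029 against tMCAO and 0.49 for tMCAO against sham. Summed over the p53 list, the level was 990 to 1129 CPM with celastrol, 768 to 843 CPM in sham and 918 to 973 CPM in tMCAO, so the celastrol libraries lay above all others in the sum though none of the genes did so alone. Cry2, a repressor of the circadian clock, lay at 178, 188 and 172 CPM with celastrol against 125 to 169 CPM, and Hr, a corepressor of nuclear receptors, at 40.3, 56.0 and 41.1 CPM against 16.2 to 35.0 CPM. Each was the 1 gene of its list, of 19 clock and 13 thyroid and retinoid genes, with all celastrol libraries on top. Over all genes the share was 0.742%, and such single genes are not read as a trait of their lists. Of 15 excitatory cortical neuron genes 1 was higher, against 2.93% of all genes: Etv1, a transcription factor of deep cortical layers. The median of that list, 0.22, turned to -0.37 without celastrol replicate 2. Of 39 axon guidance genes 3 were higher and 2 lower, against 2.93% and 1.45% of all genes. Unc5a, a netrin receptor, was the 1 gene of that list with all celastrol libraries above, against 0.742% of all genes. It lay at 87.9, 102 and 93.6 CPM with celastrol and at 69.2 to 83.9 CPM without. Of 23 cholesterol synthesis genes 15 lay below both means, against 26.9% of all genes. The median of -0.19 went to -0.07 without tMCAO replicate 1, the library with the highest sum over the list. At an unadjusted p under 0.05, 1 was lower, against 1.45% of all genes. This was Idi1, an isomerase of the pathway, at 25.5, 31.8 and 19.5 CPM against 30.2 to 58.8 CPM. The immediate early genes had a median of 0.46 that turned to -0.28 without celastrol replicate 3, where Npas4, an activity-induced factor, lay at 126 CPM against 4.89 to 19.4 CPM in the other celastrol libraries.

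Prkacb, a catalytic subunit of protein kinase A, was picked out after its values were seen, since 1 library decides its call. It lay at 192, 233 and 246 CPM with celastrol, against 693, 707 and 642 CPM in sham and 226, 574 and 528 CPM in tMCAO. The celastrol libraries were below all undrugged ones but tMCAO replicate 1, which was level with them. The log2 fold change was -1.29 (SE 0.27, edgeR adjusted p = 0.677, DESeq2 adjusted p = 0.0018), and without tMCAO replicate 1 it was -1.45 with an edgeR adjusted p of 0.0296, 1 of 2 genes called in that fit. Lcn2 was the other, with a log2 fold change of 3.60 and an adjusted p of 0.0333. Fcgr4, an activating receptor for immunoglobulin G on myeloid cells, was also chosen after its values were seen, for the smallest unadjusted p of the contrast, 1.56e-05. It lay at 5.03, 2.74 and 4.31 CPM with celastrol, 2.01, 2.63 and 3.93 CPM in tMCAO and 0.167 to 0.220 CPM in sham. Its celastrol and tMCAO libraries overlapped, and the log2 fold change of 2.42 (SE 0.29) against the average split into 4.34 against sham and 0.50 against tMCAO.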

How the data were processed

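RNA-seq of 9 libraries was analysed, 3 in each of 3 groups. The authors deposited 1 table of 55385 gene rows, with estimated counts and FPKM values (fragments per kilobase of transcript, scaled to depth) for every library. The build was mm10, and the tools named are StringTie 1.3.4d, HISAT2 2.0.4, DESeq2, edgeR and cutadapt 1.9, per the submitters' processing notes. No source used here states their settings. The deposited estimated counts are whole numbers and were used unchanged, and genes with a count of 0 are listed at an FPKM of 0.0001 in the deposited table.

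A gene was tested where its FPKM reached 0.5 in 3 or more of the 9 libraries (16982 genes). All 9 libraries entered 1 edgeR 4.0.16 quasi-likelihood fit in R 4.3.3, with TMM scaling, 1 mean per group and no covariate (common dispersion 0.0963, prior degrees of freedom 2.83). Tests were two-sided, with Benjamini-Hochberg adjustment over all genes tested and a threshold of 0.05. The SE is the size of the log2 fold change over the square root of the F statistic. Principal components used log2 CPM with a prior count of 2. DESeq2 1.42.0, limma 3.58.1 on log2(FPKM + 0.5) and log2(FPKM + 0.1), voom with quality weights, other scalings and filters, a replicate block and fits without each library were run as alternatives. Scripts were tested on simulated data. Where several rows share a symbol (118 symbols), list members use the row with the highest mean. For the named sets, genes needed all 3 celastrol libraries outside the 6 undrugged ones, a mean of at least 1 CPM and no pseudogene type. Those with a symbol other than a clone or model name were ranked by unadjusted p to 15 in each direction. Beside them stand 3 genes each way of the non-coding class, which took in genes with nonsense-mediated decay transcripts alone. List members were named where their unadjusted p was under 0.05 with celastrol outside both means, or as best known members. The comparison, the 53 gene lists (997 genes, some in several lists) and these rules were chosen with earlier results of these data known, so no list is independent evidence of its direction. Promoter sequences and their GRCm38.p6 coordinates come from RefSeq, and gene coordinates from the deposited table. One result is not reported here.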

Additional observations from a re-analysis of the deposited data

How the results depend on the processing

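With edgeR or limma, no gene passed an adjusted p of 0.05 in either direction of the contrast under other scalings, other filters, the newer quasi-likelihood form, voom with quality weights, limma on FPKM or the 6 undrugged libraries taken as 1 group. DESeq2 gave 56 higher and 17 lower genes, and 1 gene lower than both groups; its adjusted p was not set for 25 genes. The numbers did not pair the libraries: same-numbered libraries of different groups correlated between -0.156 and 0.198, 3 of 9 pairs over 0.1, and 8 of 18 best matches shared a number. With the replicate block 1 gene was higher, Lcn2 (adjusted p = 0.0107), and none lower. When 1 library was left out, 0 to 1 genes were higher and 0 to 1 lower than the average, and 0 were called against both groups. Counts of genes with all celastrol libraries above the undrugged ones ran from 170 to 574 in those fits and below them from 172 to 687. In each such fit either fewer celastrol libraries had to clear the range or fewer undrugged ones had to be cleared. The highest counts both came without celastrol replicate 3. Without a filter on low values (33952 genes) the count above was 249 and below 178, with 988 higher and 389 lower at an unadjusted p under 0.05 and 114 lower than both groups with the larger p under 0.05. DESeq2 gave 390 and 70 in place of 246 and 43 for these last 2 counts. Unadjusted counts against the average ran from 347 to 706 higher and 185 to 543 lower over the fits without 1 library, with the most lower genes without celastrol replicate 3. Taking the 6 undrugged libraries as 1 group gave 253 higher genes at an unadjusted p under 0.05 in place of 498, since the difference between sham and tMCAO then enters the spread. Of the 117 genes refitted under 20 alternatives (the named sets and the list members outside both means with an unadjusted p under 0.05), none changed direction. List medians kept their sign in all 9 fits without 1 library for 27 of 53 lists and changed it in at least 1 fit for 26; they kept it under both other scalings. Each library held at least 60392960 estimated counts, and folds of genes near 0 in sham are uncertain.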

Other observations

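Beyond the genes described in the report, DESeq2 called a few more whose 3 celastrol libraries all lay outside the undrugged range, chosen here after their values were seen: Tcn2, Lsr, Susd6, Selenoi and the gene models Gm11827 and Gm3854. Tcn2, the carrier that delivers vitamin B12 to cells, lay at 31.7, 27.9 and 33.4 CPM with celastrol, against 14.7 to 23.3 CPM in the 6 undrugged libraries. Lsr, a protein of tricellular junctions of the blood-brain barrier, was at 9.99, 8.77 and 10.6 CPM against 3.63 to 6.93 CPM. Susd6 was at 83.4 to 93.7 CPM against 59.0 to 80.6 CPM and had the next unadjusted p after the 15 higher genes of the report, 0.00197. Selenoi, the enzyme of the last step of phosphatidylethanolamine synthesis, lay at 11.1, 10.2 and 12.8 CPM with celastrol, against 51.5, 13.1 and 84.0 CPM in sham and 56.3, 13.05 and 64.5 CPM in tMCAO. In Selenoi, replicate 2 of each undrugged group was almost level with the celastrol libraries.

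Fcgr3, Ms4a6b and Ms4a6d, called by DESeq2 with celastrol libraries that overlapped the tMCAO ones, and Cx3cl1 and Arl5b were also chosen after their values were seen. Fcgr3, a receptor for immunoglobulin G, was at 42.3, 39.8 and 32.4 CPM with celastrol and 18.7, 22.0 and 38.0 CPM in tMCAO, with a log2 fold change of 0.54 against tMCAO. Ms4a6b and Ms4a6d, neighbours of Ms4a6c, had log2 fold changes of 0.57 and 0.21 against tMCAO, and 2.79 and 4.06 against sham. Cx3cl1, the neuronal chemokine fractalkine, passed no test (edgeR adjusted p = 0.928 for the contrast) and was at 339, 708 and 560 CPM with celastrol, 38.8 to 64.4 CPM in tMCAO and 648, 933 and 128 CPM in sham, so the celastrol libraries lay within the sham range and above all tMCAO libraries. Arl5b, a small GTPase of the Golgi called by DESeq2, was at 2.26, 2.51 and 9.49 CPM with celastrol and 3.89 CPM in tMCAO replicate 2, against 25.8 to 36.4 CPM in the other undrugged libraries.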
